A study of Mus musculus with 6 samples.

Results

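MiR-451, miR-144 and miR-486 are the microRNAs (miRNAs) most closely tied to red blood cells, and they were examined in whole aortas of mice that had or lacked Dicer in the endothelium. They were chosen by name, as mmu-miR-451, mmu-miR-144 and mmu-miR-486, without strands marked by an asterisk. Of these 3 names, 2 had an assay (mmu-miR-451 and mmu-miR-486) among the 596 mouse miRNA assays. MiR-144 was not analysed here, so miR-451 could not be set against its cluster mate, and miR-486 served as the Dicer-dependent erythroid miRNA instead.

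The aortas came from 3 EC-Dicerflox mice (VE-Cadherin-CreERT2, Dicer1flox/flox, Apoe-/-) and 3 EC-DicerWT littermates (VE-Cadherin-CreERT2, Dicer1WT/WT, Apoe-/-). Both groups thus carried the Cre transgene and lacked apolipoprotein E, and both received tamoxifen (2 mg per 20 g body weight) on 5 days. The mice were females, 6 to 8 weeks old at the start of 12 weeks on a high-fat diet, in which crude fat made up 21% and cholesterol 0.15%. Dicer itself was not measured on the arrays, so the deletion could not be checked in these samples. The promoter of VE-cadherin, an adhesion protein of endothelial cells, restricts Cre to the endothelium, so other cells of the aorta and blood cells left in it were not the target of the deletion. The vessels were perfused with RNAlater before RNA was extracted.

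Dicer cuts the loop off hairpin precursors to release mature miRNAs. The precursor of miR-451 is the known exception in mammals, because its stem is too short for Dicer and it is sliced by Argonaute 2 and then trimmed. MiR-451 and miR-144 are made from 1 primary transcript that the erythroid factor GATA1 drives in maturing red cells. MiR-144 and miR-486 need Dicer, and miR-486, encoded within the ankyrin gene Ank1, is abundant in red cells and also made in striated muscle. Among known targets are Ywhaz, a 14-3-3 adaptor, for miR-451, and Foxo1, a transcription factor that restrains growth, for miR-486.

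The mature sequences and hairpins show how the cluster mates differ, and were read from RefSeq for the GRCm38.p6 build, which held sequences for 2 of the 3 names. All 3 names matched a RefSeq gene, and that of miR-486 lies within the span of the protein-coding gene Ank1. Mir144 lies at chr11:78073005-78073070 and Mir451a at chr11:78073170-78073241, both on the plus strand, with 99 bases between them. No protein-coding gene of the table overlaps the cluster, whose nearest such neighbours are Flot2 and Eral1. A further gene, Mir451b, is annotated on the opposite strand over Mir451a. Capitals mark the seed (bases 2 to 8, with which a miRNA mainly recognises its targets) in the mature sequences. In the hairpins they mark the mature strand.
miR-451a, mature: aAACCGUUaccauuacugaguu
miR-144-3p, mature: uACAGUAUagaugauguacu
Mir451a hairpin: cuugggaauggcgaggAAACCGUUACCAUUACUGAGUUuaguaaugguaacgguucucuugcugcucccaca
Mir144 hairpin: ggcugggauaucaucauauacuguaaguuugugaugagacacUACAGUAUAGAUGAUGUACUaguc

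No other mature miRNA in the RefSeq table shared the seed of miR-451a or that of miR-144-3p. In the fold predicted by RNAfold for the 72-base Mir451a hairpin, the terminal loop held 4 bases, from 35 to 38. The 22-base mature miR-451a spanned bases 17 to 38 and so filled the whole loop with its last 4 bases. In the 66-base Mir144 hairpin the predicted loop ran from base 31 to 36. The mature miR-144-3p lay at bases 43 to 62, with 0 of its 20 bases in the loop. The folds are predictions for the annotated hairpins and not measurements. They held 30 predicted base pairs for Mir451a and 27 for Mir144, so they do not show the short stem of the miR-451 precursor.

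Each miRNA was quantified on TaqMan array cards by its cycle threshold (Ct), which is the number of PCR cycles needed to reach a fixed signal. A lower Ct means more RNA, and an undetected assay has a Ct of 40. Of the miRNAs that mark an artery, those of smooth muscle, miR-145 (mean Ct 14.7) and miR-143 (16.2), and the endothelial miR-126-3p (17.5) were all abundant, and miR-145 had the lowest mean Ct of the 394 assays detected in all samples. From 421 to 454 miRNAs were detected per sample. The third replicates of both groups stood apart from the other mice. Both departed by over 2 cycles from the range spanned by the other 4 samples in 22 assays, against at most 9 assays for any other pair, so values with and without them are given below.

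Both erythroid miRNAs were readily detected in every aorta. The Ct of miR-451 was 20.0, 19.8 and 20.7 in EC-Dicerflox replicates 1, 2 and 3, and 20.4, 19.4 and 20.4 in EC-DicerWT replicates 1, 2 and 3. In the same order the Ct of miR-486 was 20.1, 20.5 and 21.7 in EC-Dicerflox and 20.9, 20.3 and 20.6 in EC-DicerWT aortas. The miR-486 values of the EC-Dicerflox mice enclosed those of the EC-DicerWT mice, with replicate 1 the earliest and replicate 3 the latest of all 6 samples. When the 596 miRNA assays of a sample were ordered from the lowest Ct, miR-451 held places 37 to 57 and miR-486 places 50 to 73. Such places depend on the efficiency of each assay, which was not measured.

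Each Ct was then set against the mean Ct of 5 control small RNAs (U6, Y1, U87, snoRNA135 and snoRNA202), which were detected in every sample, giving a level on the log2 scale on which 1 unit is a doubling if every cycle doubles the product. The level of miR-451 was -0.56, 0.07 and -0.34 in EC-Dicerflox and -0.79, 0.04 and -0.23 in EC-DicerWT replicates 1, 2 and 3. Replicate 2 was the highest and replicate 1 the lowest of either group, and the ranges of the groups overlapped over most of their length. The level of miR-486 was -0.70, -0.61 and -1.32 in EC-Dicerflox and -1.37, -0.89 and -0.42 in EC-DicerWT replicates 1, 2 and 3. Here the third replicate was the lowest of the EC-Dicerflox mice and the highest of the EC-DicerWT mice, and the ranges again overlapped.

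**Figure D1:**
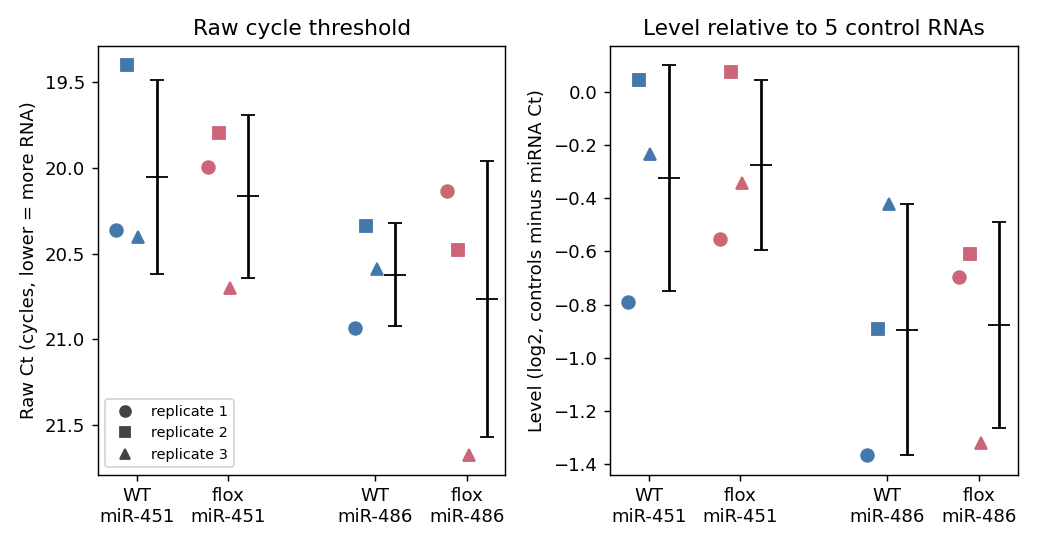
Raw Ct (left, inverted axis) and level relative to the 5 control RNAs (right, log2) of miR-451 and miR-486 in each mouse, with symbols for replicate numbers and black bars for the mean and SD of 3 mice. EC-DicerWT mice are blue and EC-Dicerflox mice red. The groups overlap for both miRNAs on both scales, with miR-451 levels between -0.79 and 0.07 and miR-486 levels between -1.37 and -0.42.

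Endothelial Dicer deletion came with no resolved difference in either miRNA. The mean level of miR-451, which needs no Dicer, was -0.28 ± 0.32 with the deletion and -0.33 ± 0.42 without it (SD, n = 3 mice per group, as for all means below). It thus changed by 0.05 ± 0.32 (SE) on the log2 scale, to 104% of control, with a 95% interval from limma of -0.77 to 0.87. The mean level of miR-486, which needs Dicer, was -0.88 ± 0.39 and -0.89 ± 0.47. It changed by 0.02 ± 0.36 (SE), to 101% of control, with an interval of -0.88 to 0.92. The adjusted limma P was 0.99 for both. These intervals reach from 58.8% to 182% of the EC-DicerWT level for miR-451 and from 54.2% to 189% for miR-486, so moderate changes in either direction were not detectable with 3 mice per group.

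Of the 2 erythroid miRNAs, 0 had an adjusted limma P under 0.05, as did 0 of all 439 tested miRNAs (0%). At an unadjusted limma P under 0.05 the counts were 0 of 2 and 21 of 439, or 4.78%. Values without overlap between the groups were found for 0 of 2 and for 43 of 439, or 9.79%. In the order of the unadjusted P, miR-451 held place 375 and miR-486 place 416 of the 439. Their changes stood close together at the 67.0th and 63.8th percentile of all changes, whose median was -0.10. In the whole aorta, a change in the number of red cells and a change in miRNA per red cell cannot be told apart.

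The signs of both changes rested on the reference and on single mice. With U6 alone as reference the changes were -0.33 for miR-451 and -0.36 for miR-486, while the median of all changes was -0.48. With U87 alone they were 0.23 and 0.20. Between the cards, the 5 controls differed by a median of 0.52 cycles per sample and by as much as 1.71 cycles, for Y1 in EC-Dicerflox replicate 3. With the controls of the members' own card as reference, the changes were 0.04 for miR-451 and 0.01 for miR-486.

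The changes were also computed with the third replicates set aside. In replicates 1 and 2 alone miR-486 changed by 0.48 (adjusted limma P of 0.86), and miR-451 by 0.13 (adjusted limma P of 0.94). Within the third replicates, with 1 mouse per group and no test, the EC-Dicerflox minus EC-DicerWT difference was -0.90 for miR-486 and -0.11 for miR-451. When the third replicates were fitted as a batch the estimates were 0.05 for miR-451 and 0.02 for miR-486 and the adjusted limma P was 0.99 for both. MiR-486 thus had opposite signs in the third replicates and in the others.

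MiR-451 was next compared with other miRNAs inside each sample, where no reference RNA enters. The log2 ratio of miR-451 to miR-486 (the Ct of miR-486 minus that of miR-451) was 0.14, 0.68 and 0.97 in EC-Dicerflox and 0.58, 0.94 and 0.19 in EC-DicerWT replicates 1, 2 and 3. It was above 0 in 6 of 6 aortas, which does not rank the amounts since assay efficiencies were not measured, and the groups overlapped almost fully. On average it was 0.60 ± 0.42 with the deletion and 0.57 ± 0.37 without it. The difference between the groups was 0.03 ± 0.33 (SE), with an exact permutation P of 0.9 and a P of 0.9 after adjustment over 4 such comparisons. The 9 differences between 1 mouse of each group ran from -0.80 to 0.79, which is an exact 90% interval of the shift. In replicates 1 and 2 alone the difference was -0.34 and in the third replicates 0.79. A departure of the Dicer-independent miR-451 from the Dicer-dependent miR-486 was therefore not resolved, and its sign was not fixed. As far as both come from blood cells, which were not the target of the deletion, this ratio could not show their need for Dicer.

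Against miRNAs of the vessel wall, the ratios of miR-451 also differed between the groups by less than the spread between mice. MiR-145 is made in smooth muscle, and miR-451 relative to it was -5.52 ± 0.48 with the deletion and -5.36 ± 0.56 without it. The difference was -0.16 (exact permutation P of 0.7, 90% interval from -1.31 to 0.68). Relative to the endothelial miR-126-3p, miR-451 was -2.49 ± 0.41 and -2.67 ± 0.63, with a difference of 0.18 (exact permutation P of 0.8, 90% interval from -0.99 to 0.98). In both ratios EC-DicerWT replicate 2 was the highest of the 6 samples, at -4.73 and -1.95. The lowest were EC-Dicerflox replicate 3 against miR-145 (-6.04) and EC-DicerWT replicate 1 against miR-126-3p (-3.11). All of these P values were 0.9 after adjustment, and 0.1 is the smallest P that 3 against 3 samples allow.

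A list of 11 other miRNAs abundant in red cells, all made through Dicer, was used as a wider Dicer-dependent comparison. It holds miR-16, miR-15a, miR-15b, miR-92a, miR-25, miR-93, miR-20a, miR-106b, miR-363, miR-185 and miR-210. Most of these are also made in other cells, and several share a primary transcript, such as miR-25, miR-93 and miR-106b. All 11 were tested, and the change relative to the 5 controls was negative in 11 of 11, but in 5 of 11 with U87 alone and 6 of 11 with Y1 alone as reference. Its median was -0.18, against a median of -0.10 and negative changes in 271 of the 439 tested miRNAs. The latter count was 364 with U6 alone, 188 with Y1 alone and 181 with U87 alone, where the medians of all miRNAs were -0.48, 0.06 and 0.08. Of the 11, 0 passed at the adjusted limma P, and miR-185 alone passed at the unadjusted limma P (change of -0.58 ± 0.20, SE, unadjusted P of 0.032, adjusted P of 0.98). The groups did not overlap in 1 of 11, again miR-185. Over all tested miRNAs, 43 of 439 (9.79%) did not overlap and 21 of 439 (4.78%) passed at the unadjusted limma P. Leaving out a single mouse (replicate 1 or 2 of EC-Dicerflox, or replicate 2 or 3 of EC-DicerWT) left 8 of 11 negative, as were 9 of 11 in replicates 1 and 2 alone.

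**Figure D2:**
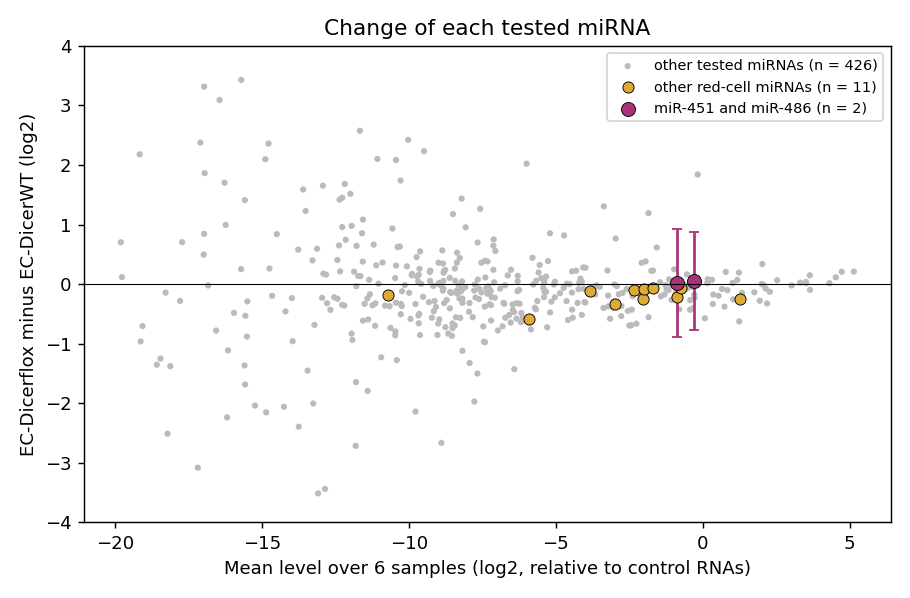
Change between the groups (vertical, log2) against the mean level over the 6 samples (horizontal, log2) for each tested miRNA, with 95% limma intervals for miR-451 and miR-486. The erythroid pair lies at 0.05 and 0.02, and the 11 other red-cell miRNAs lie between -0.58 and -0.07 with this reference of 5 controls (6 of them would lie at 0 or above with U87 alone). Beyond the axis limit of 4 log2 units, 5 miRNAs are not drawn.

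The log2 ratio of miR-451 to the mean of these 11 miRNAs was 2.55, 3.14 and 2.48 in EC-Dicerflox and 2.30, 2.52 and 2.57 in EC-DicerWT replicates 1, 2 and 3. EC-Dicerflox replicate 2 stood above the other 5 mice, whose values overlapped. On average the ratio was 2.72 ± 0.36 with the deletion and 2.47 ± 0.14 without it, a difference of 0.26 ± 0.23 (SE) with an exact permutation P of 0.5 and an adjusted P of 0.9. Its 90% interval ran from -0.09 to 0.84. Without EC-Dicerflox replicate 2 the difference was 0.05, and with the median of the list in place of the mean it was 0.12. In replicates 1 and 2 alone it was 0.43, and in the third replicates -0.09. This comparison was added after the data were seen.

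Taken one by one, the ratio of miR-451 to each of the 11 miRNAs was higher in EC-Dicerflox aortas for 11 of 11, by 0.12 for miR-92a and miR-210 up to 0.63 for miR-185. This count follows from the 11 negative changes above and the positive change of miR-451, which all of these ratios share. The same direction was found against 266 of all 393 other miRNAs detected in every sample, or 67.7%. Without EC-Dicerflox replicate 2 the counts were 7 of 11 and 169 of 393, or 43.0%, and without EC-DicerWT replicate 1 they were 9 of 11 and 159 of 393. Among all miRNAs the direction thus turned with single mice (43.0% and 40.5%). In the list, leaving out 1 mouse gave counts from 7 to 11 of 11 and median differences from 0.09 to 0.35. The median over all miRNAs was not computed without single mice, so the list and all miRNAs cannot be compared on that measure.

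**Figure D3:**
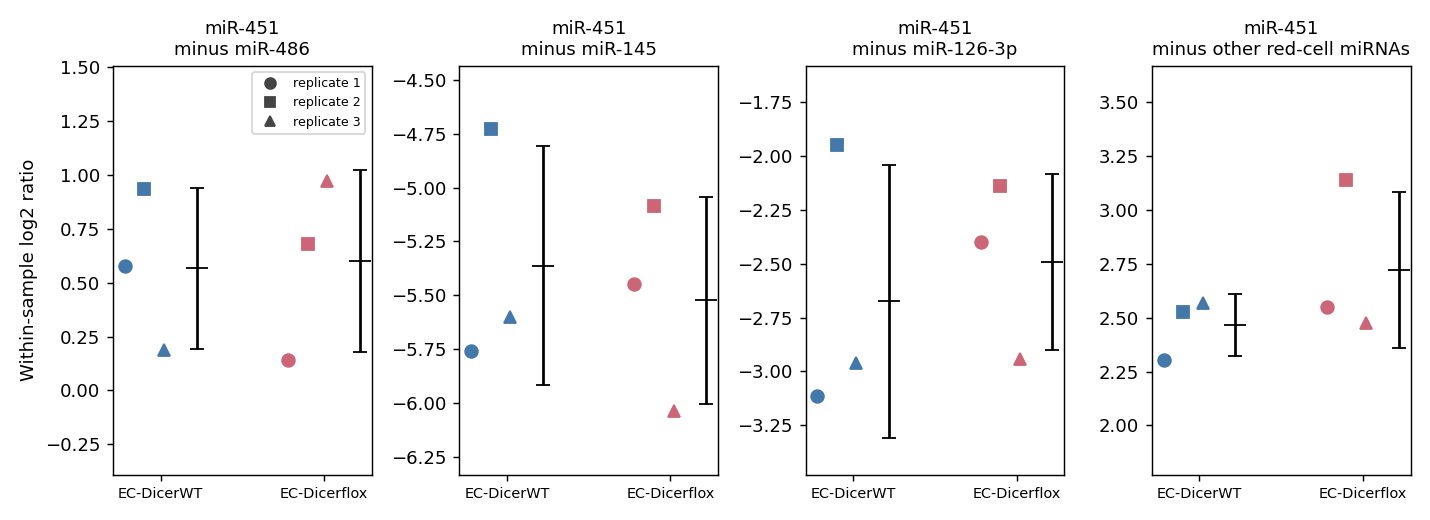
Within-sample log2 ratios of miR-451 to miR-486, miR-145, miR-126-3p and the mean of 11 other red-cell miRNAs in each mouse (symbols for replicate numbers, colours for groups, black bars for the mean and SD of 3 mice, axes of equal length). The groups overlap in each panel, and EC-Dicerflox replicate 2 is the highest against the red-cell miRNAs, at 3.14.

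Between mice, miR-451 and miR-486 varied about as much as each other. Over the 6 samples the level of miR-451 spanned 0.86 log2 units (SD 0.34) and that of miR-486 0.94 (SD 0.39), at the 33.0th and 41.4th percentile of the SDs of the 394 miRNAs detected in all samples. The median SD was 0.30 among the 143 miRNAs with a mean Ct under 25, to which both belong. Their levels correlated with a Pearson's r of 0.52 (exact permutation P of 0.3) and a Spearman's rho of 0.60 (exact permutation P of 0.24) over the 6 samples, the only relation computed. The levels share the reference RNAs, and raw Ct values, which share the amount of input RNA, gave an r of 0.77 (exact permutation P of 0.068). Without EC-Dicerflox replicate 2 and EC-DicerWT replicate 1, the samples farthest from the median of miR-451, r was -0.02 over the remaining 4, a number too small to judge the relation. Fitting the third replicates as a batch gave an r of 0.52 (exact permutation P of 0.23 within batches), and the single batches hold too few samples for a value.

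The miRNAs most like each member were named by the smallest SD over the 6 samples of the Ct difference to it, as a description. For miR-451 these were miR-15b (0.16 cycles), miR-25 (0.17), miR-335-3p (0.17), miR-669a (0.22) and miR-92a (0.23), against a median of 0.60 cycles over 393 other miRNAs. MiR-15b, miR-25 and miR-92a belong to the red-cell list, of which 6 of 11 were among the nearest 39 assays. Levels of abundant miRNAs varied less between mice, with a median SD of 0.30 for a mean Ct under 25 against 0.46 for all 394. Other members of the list lay farther off. The abundant miR-16 (mean Ct 18.5) held place 90, miR-15a place 115, miR-210 place 150 and miR-185 place 171. The faint miR-363 (mean Ct 30.5) held place 327. Places were not compared among assays of like Ct, for this or any other list. MiR-486 held place 28 (0.36 cycles). For miR-486 the nearest were miR-1191 (0.25 cycles), miR-25 (0.26), miR-192 (0.27), miR-146a (0.29) and miR-674 (0.30), with miR-451 at place 13 and 5 of 11 red-cell miRNAs among the nearest 39. MiR-25, which the Mcm7 gene hosts, was the only miRNA among the nearest 5 of both members.

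Markers of other cells were placed in the same order. Of the 6 leukocyte miRNAs (miR-142-3p, miR-142-5p, miR-223, miR-150, miR-155 and miR-146a), 4 were among the nearest 39 to miR-451, with miR-142-5p at place 6, and 2 were among the nearest 39 to miR-486. Smooth muscle miR-143 and miR-145 and the endothelial strands miR-126-3p and miR-126-5p lay between places 79 and 120 for miR-451 and between 84 and 192 for miR-486. Of the 6 striated muscle miRNAs listed, which bear on miR-486 because muscle makes it too, 5 had an assay. MiR-133a was the nearest to miR-486, at place 63, and miR-1, miR-133b and miR-208 were farther. The mean Ct was 18.6 for miR-133a, 21.5 for miR-133b and 22.0 for miR-1, against 20.7 for miR-486. MiR-208 had a mean Ct of 31.6. The heart and slow-muscle miR-499 was undetected in 5 of 6 samples, with a Ct of 35.8 in EC-DicerWT replicate 2.

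**Figure D4:**
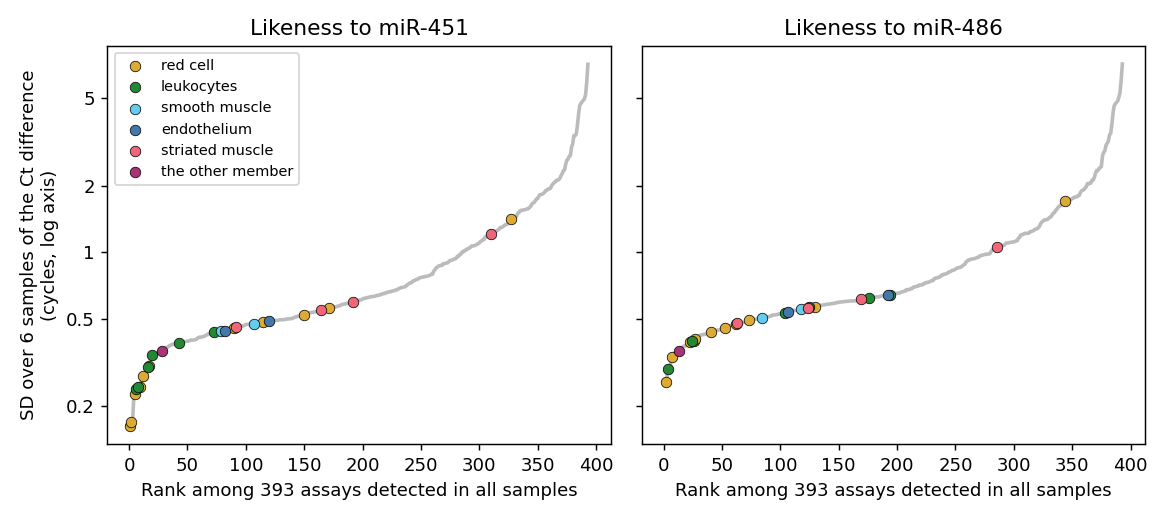
SD over 6 samples of the within-sample Ct difference (vertical, cycles, log axis) to miR-451 (left) or miR-486 (right) for 393 other miRNAs in rising order (grey line), with marker lists as coloured points. On the left the coloured points up to place 20 are all red-cell or leukocyte miRNAs, with unlisted assays between them on the grey line. Other red-cell points lie at places 90 to 327, and miR-486 is at place 28.

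The summed levels of these lists overlapped between the groups. Such sums are carried by the most abundant assays, and assay efficiencies were not measured. Within the striated muscle list the faint miR-208 did not overlap, as did not 43 of all 439 tested miRNAs. Its change was -1.65 ± 0.53 (SE, unadjusted limma P of 0.024, adjusted limma P of 0.98). The summed level of miR-451 and miR-486 together ran, in log2 units, from 0.25 to 0.77 with the deletion and from -0.05 to 0.67 without it. The leukocyte list ran from 1.38 to 1.88 and from 1.48 to 2.01, and the striated muscle list from 1.26 to 1.73 and from 1.29 to 1.54. The other red-cell miRNAs ran from 2.07 to 2.30 and from 2.11 to 2.68. The part of blood content, leukocytes or muscle in the levels of miR-451 and miR-486 was not tested.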

How the data were processed

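Total RNA of 6 aortas, 3 mice per group per the study's text, went through Megaplex reverse transcription and preamplification before it was loaded on TaqMan array cards. The authors deposited raw Ct values without subtracting a reference, and how baseline and threshold were set is not given in the sources used here. The table held 596 mouse miRNA assays, 10 assays of 5 control RNAs and 2 of a plant miRNA, and the card was read from the length of the assay number (335 miRNA assays on card A, 261 on card B). Ct values have no read depth, so precision rests on how many mice were measured. Groups came from the sample titles.

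Levels (reference Ct minus Ct, Ct 40 kept at 40) of the 439 miRNAs detected in at least 3 samples were compared with limma 3.58.1 in R 4.3.3, two-sided, without a replicate block, with Benjamini-Hochberg adjustment. The test was checked on simulated levels. Within-sample ratios were compared by exact permutation over 20 assignments, and the correlation over 720 pairings. Hairpins were folded with RNAfold 2.7.2. The named miRNAs were the members, miR-145, miR-126-3p and the 5 most like each member. Alternatives were other references, detection limits, variance models, a replicate block, a batch term, and leaving out mice. The members and lists were chosen with earlier results of these data known. The planned comparisons with miR-144 and its other strand were not made.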

Additional observations from a re-analysis of the deposited data

Results flagged for a closer look

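The assay for a plant miRNA, a negative control that enters no comparison, gave a Ct of 39.776 on card A in EC-Dicerflox replicate 1, just under the limit of 40, and was undetected in the other samples and on card B. The latest Ct of either erythroid miRNA was 21.7.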

How the results depend on the processing

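Across 25 alternative fits the change of miR-451 ranged from -0.33 to 0.24 and that of miR-486 from -0.36 to 0.48, with adjusted limma P values from 0.86 to 0.999 and from 0.84 to 0.999, and 0 of the 2 passed in any. Signs turned with U6 alone (-0.327 for miR-451, -0.359 for miR-486), with U6 and snoRNA135 (-0.1138 and -0.1458), and for miR-486 without U87 (-0.0261). The pair U6 and snoRNA135, the set without U87, and snoRNA202, U87 and Y1 alone were added after the data were seen. Leaving out 1 mouse gave -0.1808 to 0.2359 for miR-451 (-0.1237 without EC-Dicerflox replicate 2, -0.1808 without EC-DicerWT replicate 1) and -0.2172 to 0.2541 for miR-486 (-0.0702 without EC-Dicerflox replicate 1, -0.1144 without EC-Dicerflox replicate 2, -0.2172 without EC-DicerWT replicate 1). MiR-451 relative to miR-486 ranged from -0.1572 to 0.2607 (-0.0093 without EC-Dicerflox replicate 2, -0.1553 without EC-Dicerflox replicate 3, -0.1572 without EC-DicerWT replicate 3) and was -0.3445 in replicates 1 and 2. Relative to miR-145 it ranged from -0.3805 to 0.1563 (0.0970 without EC-Dicerflox replicate 3, 0.1563 without EC-DicerWT replicate 2), relative to miR-126-3p from -0.0400 (without EC-DicerWT replicate 1) to 0.5435, and relative to the red-cell list from 0.0475 to 0.3790. The correlation was -0.0224 without the 2 mice farthest from the median of miR-451. The cause was not tested. MiRNAs with an unadjusted P under 0.05 numbered 21, 11 with U6 or Y1 alone, 6 with U87 alone, and 8 to 22 without 1 mouse (8 without EC-Dicerflox replicate 2, 13 without EC-DicerWT replicate 1, 11 without EC-DicerWT replicate 3). An adjusted limma P under 0.05 was reached by 1 miRNA, miR-1906, when the third replicates were fitted as a batch (change of 6.83, adjusted P of 0.0062), and by 1, again miR-1906, in replicates 1 and 2 (6.50, 0.045). In the main fit the same change of 6.83 ± 2.87 (SE) had an adjusted limma P of 0.98, and the groups overlapped. The sample titles name no batch. MiR-1906 was named after its values were seen. The planned comparisons of miR-451 and miR-486 with miR-144, and the alternative with its other strand, were not run.

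With a replicate block the changes were 0.0507 for miR-451 (adjusted limma P of 0.98) and 0.0187 for miR-486 (0.99), and 17 miRNAs had an unadjusted P under 0.05. Same-numbered samples deviated together with correlations of 0.24, 0.03 and 0.39. Other pairings were not examined, so these values do not decide whether the numbers mark pairs. Replicate numbers were not used as pairs in the main fit.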
